A study of Homo sapiens with 2 samples.

Results

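SYK, PTK6 (BRK), the SRC family kinases SRC, LYN, FYN, YES1 and LCK, the PTK6 relative FRK and PTK2B (PYK2) are cytoplasmic tyrosine kinases, and they were read from all probe sets that the array annotation assigns to 1 of these 9 symbols. These were 30 of the 41097 probe sets with 1 gene symbol, and 9 of the 19775 genes such probe sets name. HCC4006ER is an erlotinib-resistant line labelled with an epithelial-mesenchymal transition (EMT) phenotype, derived from HCC4006 by exposure to erlotinib over 3 months, starting at 3 nM and ending at 4 μM. HCC4006 is the erlotinib-sensitive parental line, a human non-small cell lung cancer (NSCLC) line, and both lines carry an EGFR deletion in exon 19. Neither line received a treatment in the 48 hours of culture before RNA was taken, and 3 RNA preparations per line were mixed and hybridized to 1 array. Each line is therefore 1 sample, differences have no replicate error and no test, and all values compare these 2 arrays. The RNA pools are called the HCC4006ER pool and the HCC4006 pool after their labels.

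Cytoplasmic tyrosine kinases have no receptor domain of their own and carry signals from growth factor receptors, integrins and immune receptors by phosphorylating tyrosines on adaptors and enzymes. SRC family kinases are held at the membrane by an N-terminal lipid and are kept inactive by a phosphorylated tyrosine in their tail, which CSK phosphorylates. SYK is recruited through its paired SH2 domains to phosphorylated receptor tails and is best known from blood cells, although epithelial cells also use it. In lung cancer cells SRC family kinases are known to act beside EGFR and to phosphorylate proteins of focal adhesions.

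The values are MAS5 signals, the array brightness of a probe set on a linear scale. A background level was set on each array from 127 probe sets of olfactory and bitter taste receptors, at the 95th percentile, which was 91.6 for HCC4006ER and 96.2 for HCC4006. Dimmer signals count here as under background. Where this held for 1 array only, the background level replaced the dim signal and the fold is a lower bound ("at least"), and where it held for both arrays there is no fold. The threshold was 1.5-fold. Of 30 kinase probe sets, 13 were above background on both arrays, 3 on 1 array and 14 on neither.

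The labels were checked by marker genes. EPCAM, KRT7, KRT8, KRT18, KRT19 and CDH1, markers of epithelial cells, read 10660 to 17137 in the HCC4006ER pool and 7922 to 18721 in the HCC4006 pool, each within 1.5-fold. E-cadherin (CDH1), which is lost in a full EMT, thus had nearly equal signals, 11041 in the HCC4006ER pool and 10469 in the HCC4006 pool. ZEB1, a repressor of CDH1 that the study follows, was under background on both arrays, at 53.1 in the HCC4006ER pool and 42.5 in the HCC4006 pool. The mesenchymal genes VIM, CDH2 and FN1 were 1.53-fold, 2.05-fold and 1.66-fold higher in the HCC4006ER pool. The mesenchymal genes thus differed in the direction of the EMT label, and the brightest probe sets of CDH1 and ZEB1 did not show a loss and a gain. Any other probe sets of these genes were not examined. The paper reports a large rise of ZEB1 and a loss of E-cadherin from its arrays, and the same directions by RT-PCR and in protein. The values read here differ from that report, and the reason was not tested. NKX2-1, the lineage factor of lung adenocarcinoma, was under background on both arrays, at 7.98 in the HCC4006ER pool and 65.4 in the HCC4006 pool. Of the other lung markers, SFTPC was above background on both arrays, at 346 in the HCC4006ER pool and 261 in the HCC4006 pool. SFTPB read 138 in the HCC4006ER pool and 69.4 in the HCC4006 pool, under background in the latter. NAPSA read 66.9 in the HCC4006ER pool, under background, and 97.3 in the HCC4006 pool. Of 15 measured blood cell markers, 4 were above background in the HCC4006ER pool and 6 in the HCC4006 pool, with signals summing to 1272 and 1549, and CSF1R, CORO1A and CD79A the brightest. The defining marker PTPRC (CD45) was under background, at 31.8 in the HCC4006ER pool and 46.9 in the HCC4006 pool. No blood marker was called past 1.5-fold, but CD3E and LAPTM5 had lower bounds only. Their measured ratios were 1.67-fold and 1.59-fold lower in the HCC4006ER pool. The part of other cell types in the values of the kinases was not tested. Of 9 fibroblast markers, COL1A1 was above background in the HCC4006ER pool, and COL1A1 and THY1 were in the HCC4006 pool, with sums of 1208 and 1011, and COL1A1 was 1.63-fold higher and THY1 at least 1.37-fold lower in the HCC4006ER pool.

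Of 8 kinase genes with a fold, read from the brightest probe set of each gene, SYK and PTK6 were lower past 1.5-fold in the HCC4006ER pool. FYN was higher past it and 5 were not called. Among these PTK2B had only a lower bound under 1.5-fold, so its size is not known to lie within the threshold. LCK was under background on both arrays. Among 11848 genes above background, 19.2% passed 1.5-fold in either direction, 11.2% lower and 8.02% higher in the HCC4006ER pool. The median log2 difference (HCC4006ER over HCC4006) was 0.13 over the 8 kinases and -0.04 over the 11848 genes. The kinase median was -0.04 with the mean over probe sets and -0.10 with probe sets without a suffix letter, over 6 kinases each. By probe set, 4 of 16 kinase probe sets above background on at least 1 array were higher and 3 were lower past 1.5-fold, while 9.31% and 10.2% of 21757 such probe sets of all genes were higher and lower, 19.5% together. With so few kinases these counts are given as a description. Fewer cells with a transcript and less of it in each cell cannot be told apart in bulk RNA.

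**Figure D1:**
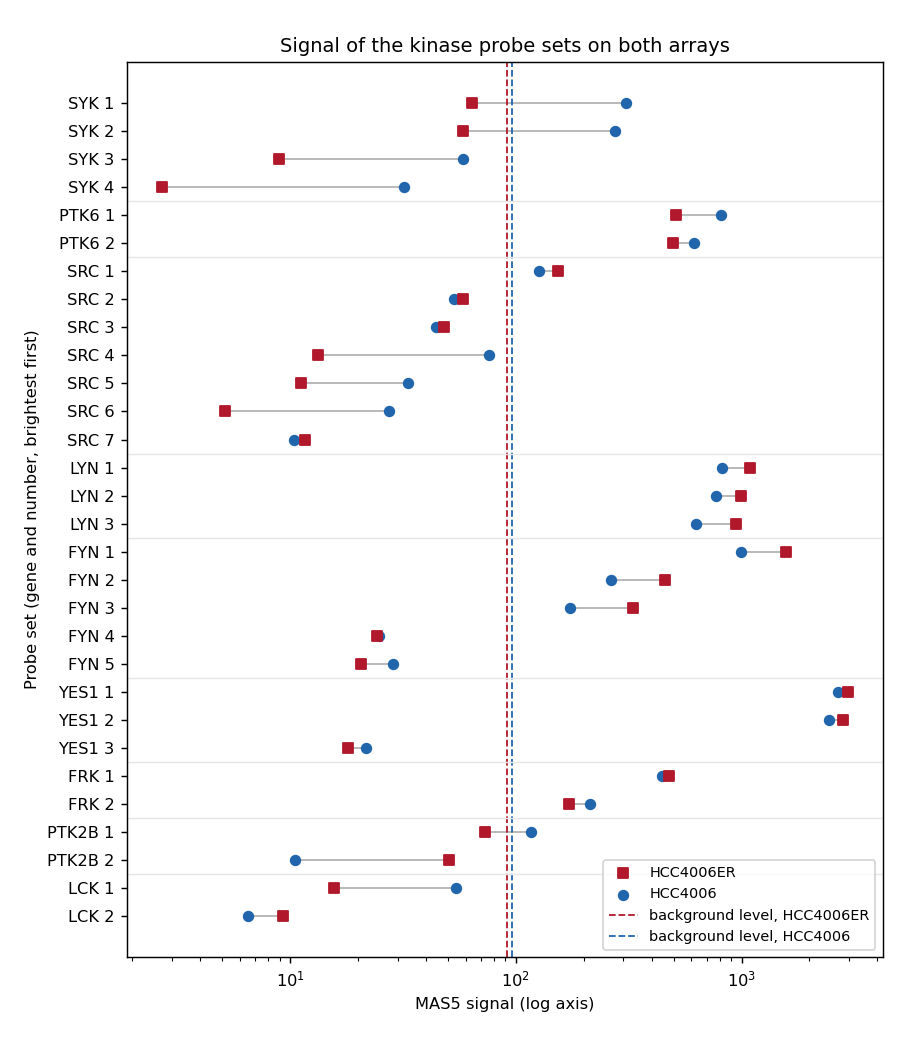
MAS5 signal on a log axis for the 30 probe sets of the 9 kinases, with squares for HCC4006ER and circles for HCC4006, and dashed lines at the background levels of 91.6 and 96.2. All 4 SYK probe sets and both PTK6 probe sets lie lower in the HCC4006ER pool, the 3 brighter FYN probe sets lie higher, and both LCK probe sets lie under background.

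Among the 8 kinases with a fold, read from the brightest probe set, SYK differed most. Its brightest probe set read 64.0 in the HCC4006ER pool and 307 in the HCC4006 pool, so that the transcript was well above background in the HCC4006 pool alone. The difference was at least 3.36-fold (log2 -1.75), a bound that depends on the background level. A second probe set read 58.1 in the HCC4006ER pool and 274 in the HCC4006 pool, at least 2.99-fold lower. The other SYK probe sets read 8.96 and 2.70 in the HCC4006ER pool, against 58.5 and 32.1 in the HCC4006 pool, all under background. All 4 probe sets were thus dimmer in the HCC4006ER pool, although only 2 of them were above background in the HCC4006 pool. With a background at the 99th percentile of the receptor probe sets the bound was a log2 difference of -0.91. With signals averaged over all 4 probe sets, of which 2 are dim, the HCC4006ER average was under background and was raised to it. The bound was then -0.29, which does not reach 1.5-fold. The measured log2 differences of the 2 probe sets above background in the HCC4006 pool were -2.265 and -2.24, with HCC4006ER signals under background. The 2 dim probe sets give no fold. The averages of PTK6 (-0.48) and FYN (0.38) are not lower bounds, so their sizes cannot be ranked against that of SYK.

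The annotation names 3 transcription start sites for SYK, and the 250 bases before the most upstream of them are shown because SYK had the widest difference (RefSeq, GRCh38.p14, chr9:90801350-90801599, plus strand). CpG dinucleotides are in capitals, and there are 13.
SYK, before its first start: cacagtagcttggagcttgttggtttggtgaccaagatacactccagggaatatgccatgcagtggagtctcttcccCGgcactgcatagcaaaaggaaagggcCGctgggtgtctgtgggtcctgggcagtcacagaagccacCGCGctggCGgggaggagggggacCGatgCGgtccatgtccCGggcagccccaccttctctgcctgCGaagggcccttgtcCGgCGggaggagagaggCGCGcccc
The E-box CACCTG, a site type that the repressors ZEB1 and Snail are known to bind, was searched on both strands (CACCTG or CAGGTG) in windows of 300 bases, 250 before and 50 after each annotated start. It occurred once near SYK, beginning at base 16 of the first transcript and thus before the second start, at chr9:90801603-90801632 with the E-box in capitals.
SYK, E-box: cgggctcctctaCACCTGccgccgcctggg
The motif stood in 20.6% of all 35116 such windows, and the signals do not say which SYK start these cells use.

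PTK6, an epithelial kinase without a lipid anchor that is also found in the nucleus, was bright on both arrays. Its brighter probe set read 511 in the HCC4006ER pool and 810 in the HCC4006 pool, 1.59-fold lower (log2 -0.67). Its other probe set read 498 in the HCC4006ER pool and 614 in the HCC4006 pool, 1.23-fold lower and within 1.5-fold. Both probe sets were lower, and only the first passed the threshold. After scaling to an equal array median the log2 difference of the first was -0.53, within 1.5-fold. As a measure of disagreement, the probe sets that share a gene differed in log2 difference by an SD of 0.27 over 5264 genes, within these arrays and RNA pools. PTK6 stood 1052nd from the lowest of 11848 genes.

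FRK, the nearest relative of PTK6 among the 9, did not share its direction in both probe sets. Its brighter probe set read 479 in the HCC4006ER pool and 446 in the HCC4006 pool, a log2 difference of 0.11. The other probe set read 172 in the HCC4006ER pool and 214 in the HCC4006 pool, a log2 difference of -0.32. The difference between the arrays thus has opposite signs in the FRK probe sets, and both values lie within 1.5-fold.

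FYN, a widely used SRC family kinase that acts downstream of integrins and T cell receptors, was higher in the HCC4006ER pool in each probe set above background. The brightest read 1567 in the HCC4006ER pool and 990.1 in the HCC4006 pool, 1.58-fold higher (log2 0.66), the 740th highest of 11848 genes. The next read 460.2 in the HCC4006ER pool and 265 in the HCC4006 pool, 1.73-fold higher. The third read 330.1 in the HCC4006ER pool and 175 in the HCC4006 pool, 1.89-fold higher. The 3 log2 differences averaged 0.79 ± 0.13 (SD over probe sets). The remaining 2 probe sets were under background, at 24.4 and 20.6 in the HCC4006ER pool and 24.7 and 28.6 in the HCC4006 pool. Averaged with these, the log2 difference was 0.38 and within 1.5-fold.

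FYN has 4 annotated starts, and the 250 bases before the most upstream of them are shown beside those of SYK, since these genes differed in opposite directions (RefSeq, GRCh38.p14, chr6:111873453-111873702, minus strand, CpG in capitals). The stretch holds 20 CpG dinucleotides.
FYN, before its first start: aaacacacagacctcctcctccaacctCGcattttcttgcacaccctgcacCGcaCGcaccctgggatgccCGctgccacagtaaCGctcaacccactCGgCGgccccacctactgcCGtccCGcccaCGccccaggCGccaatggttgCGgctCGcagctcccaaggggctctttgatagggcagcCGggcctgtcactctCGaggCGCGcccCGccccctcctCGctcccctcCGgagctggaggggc
The windows at the first 3 FYN starts held no CACCTG or CAGGTG, and the window of the most downstream start held 1, at chr6:111759121-111759150 (minus strand).
FYN, E-box: atgtgactgtctCACCTGcaaatgatcaag
Windows of 5 of the 9 kinases were searched, 11 in all, and 5 of them held the motif, beside 20.6% of all 35116 windows. The 5 were 2 of SYK, which overlap and share 1 site, 1 of FYN and 2 of LCK. So few windows give a description only. The windows of YES1 and FRK held none. LYN, PTK2B, PTK6 and SRC were not searched.

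LYN, a kinase of blood and epithelial cells, was also higher in all of its probe sets. The brightest read 1094 in the HCC4006ER pool and 820.3 in the HCC4006 pool, 1.33-fold higher (log2 0.42). The others read 999.5 and 943 in the HCC4006ER pool, against 774 and 626 in the HCC4006 pool, with the last of them 1.51-fold higher and just past the threshold. Over the 3 probe sets the log2 difference averaged 0.46 ± 0.12 (SD).

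YES1, which with SRC and FYN forms the broadly expressed trio of the family, read 2974 in the HCC4006ER pool and 2687 in the HCC4006 pool (log2 0.15). A second probe set read 2825 in the HCC4006ER pool and 2453 in the HCC4006 pool (log2 0.20), and another was under background on both arrays. YES1 was therefore bright and within 1.5-fold. SRC itself had 7 probe sets, of which 1 was above background. That probe set read 154 in the HCC4006ER pool and 127 in the HCC4006 pool (log2 0.28). The 6 others read up to 58.3 in the HCC4006ER pool and up to 76.4 in the HCC4006 pool, 3 of them higher and 3 lower in the HCC4006ER pool, and give no fold.

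For the SRC family proper (SRC, LYN, FYN, YES1 and LCK), 9 of 20 probe sets passed background on both arrays, and each of the 9 was higher in the HCC4006ER pool, with log2 differences of 0.15 to 0.92. Over all genes, 48.8% of 19613 probe sets above background on both arrays had a higher signal there. Of the 9, 3 of FYN and 1 of LYN passed 1.5-fold. Both YES1 probe sets, at 0.15 and 0.20, were under the SD of 0.27 among probe sets that share a gene. Scaling to an equal array median moved each log2 difference up by 0.14, after which 62.9% of all probe sets were higher. Quantile normalization left the 9 probe sets higher, at 0.13 to 0.95. It hardly moved their values, so it says little about their direction. The 9 probe sets come from 4 genes and share the same RNA pools, so they are not independent. For PTK6 and FRK, 1 of 4 probe sets was higher and 3 were lower under each scaling.

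**Figure D2:**
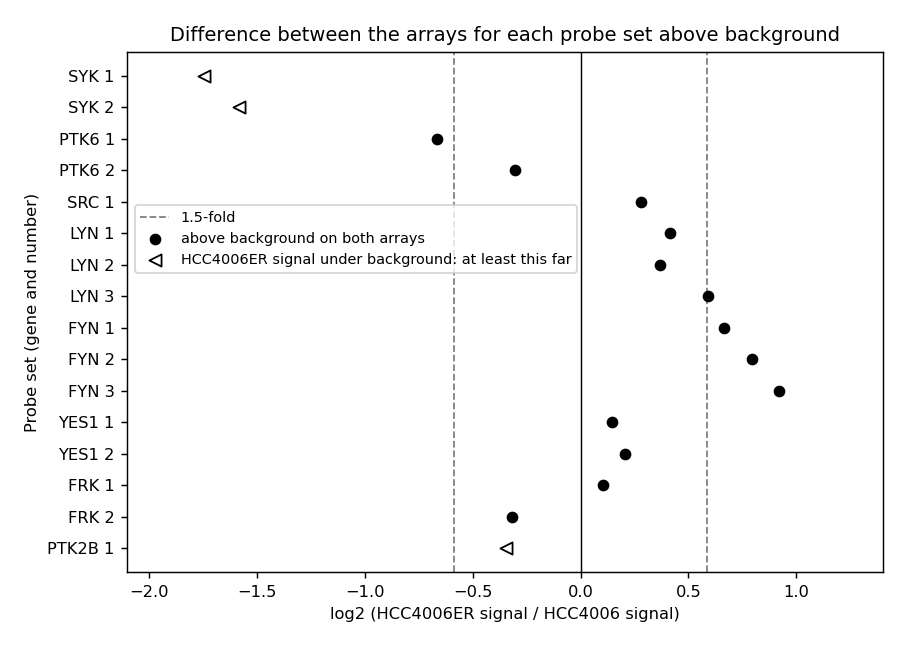
Log2 of the HCC4006ER signal over the HCC4006 signal for the 16 kinase probe sets above background on at least 1 array. Filled points were above background on both arrays, open triangles mark a lower bound on the size of the difference, and dashed lines mark 1.5-fold. The 9 points of SRC, LYN, FYN and YES1 lie right of 0, and the SYK triangles lie at -1.75 and -1.58.

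The 2 kinases best known from lymphocytes and calcium signalling were dim. PTK2B, a relative of focal adhesion kinase that responds to calcium, read 72.8 in the HCC4006ER pool and 116 in the HCC4006 pool in its brighter probe set, at least 1.27-fold lower. Its measured ratio was 1.60-fold lower, which passed the threshold where the dim signal was used as measured, with no filter and with the array median as the background. The other PTK2B probe set read 50.5 in the HCC4006ER pool and 10.5 in the HCC4006 pool, both under background and in the opposite direction. LCK, the SRC family kinase of T cells, read 15.7 and 9.29 in the HCC4006ER pool, against 54.6 and 6.54 in the HCC4006 pool, all under background. No fold is therefore given for LCK.

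**Figure D3:**
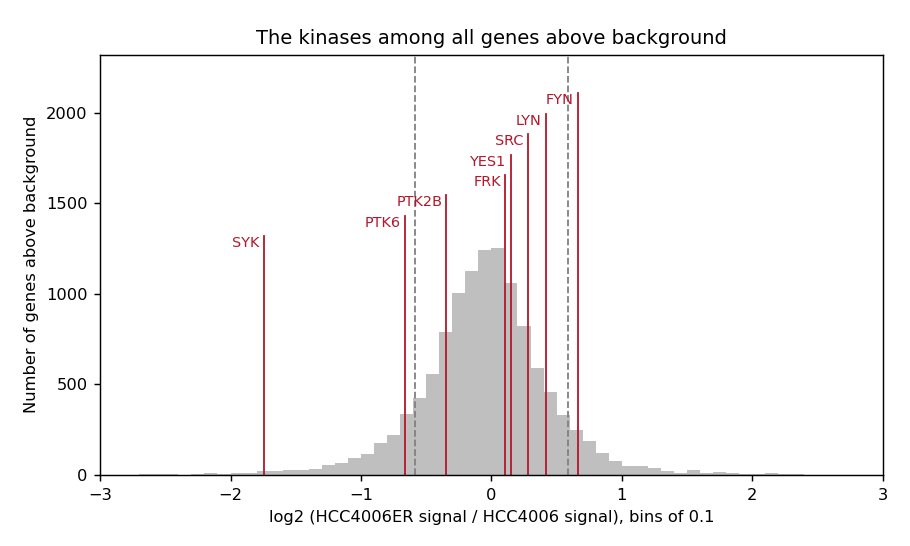
Number of genes per bin of 0.1 in log2 difference (HCC4006ER over HCC4006) for 11848 genes above background, with the 8 kinases that have a fold marked by lines and the 1.5-fold threshold by dashed lines. SYK at -1.75 lies in the lower tail, PTK6 and FYN at -0.67 and 0.66 lie just past the threshold, and the others are drawn within it. SYK and PTK2B are drawn at lower bounds on their size, so PTK2B could lie past the threshold.

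Genes that act around these kinases were read from 7 lists of 94 genes, of which 87 had a probe set and 65 a fold. Of the 65, 5 were higher and 7 were lower past 1.5-fold in the HCC4006ER pool, against 8.02% and 11.2% of all genes, so that both shares were near those of all genes. Their median log2 difference was -0.02. The same shares of all genes are the comparison for the counts of each list below, which are given as a description.

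Further cytoplasmic tyrosine kinases were read in the same way. FGR, BLK and SRMS, the measured remaining relatives, were under background on both arrays, the highest reading 31.0 in the HCC4006ER pool and 40.4 in the HCC4006 pool. Of 10 other cytoplasmic tyrosine kinases with a fold, 1 was higher and 1 was lower past 1.5-fold, near the 8.02% and 11.2% of all genes. Their median log2 difference was -0.08. ABL2, an actin-binding relative of ABL1, read 1779 in the HCC4006ER pool and 957 in the HCC4006 pool, 1.86-fold higher, and its 3 probe sets above background were all higher. TNK1 read 292 in the HCC4006ER pool and 504 in the HCC4006 pool, 1.72-fold lower, and both of its probe sets passed the threshold. With only probe sets without a suffix letter TNK1 had no fold, nor had SHC1 and UNC119 below. Focal adhesion kinase (PTK2), the nearest relative of PTK2B, read 2683 in the HCC4006ER pool and 3979 in the HCC4006 pool, 1.48-fold lower and thus within 1.5-fold.

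Of 14 regulators of SRC kinases with a fold, 2 were higher and 2 were lower, with a median of -0.02. CBL, a ubiquitin ligase for active tyrosine kinases, read 1469 in the HCC4006ER pool and 749 in the HCC4006 pool, 1.96-fold higher, with 4 of its 5 probe sets above background higher and 1 at a log2 difference of -0.07. PTPN1, a phosphatase that can activate SRC, was 1.51-fold higher at 1665 in the HCC4006ER pool and 1106 in the HCC4006 pool. UNC119, a carrier of lipid-anchored kinases, was 1.75-fold lower in its 1 probe set, at 101 in the HCC4006ER pool and 177 in the HCC4006 pool. PTPN18, a phosphatase that binds CSK, was 1.54-fold lower. PTPN1 lay within 1.5-fold after quantile normalization (log2 0.58) and PTPN18 with an equal array median (-0.48). With a background at the 99th percentile UNC119 had only a lower bound on its size, which did not reach 1.5-fold (-0.12). CSK itself read 2935 in the HCC4006ER pool and 3402 in the HCC4006 pool, a log2 difference of -0.21.

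Of 15 substrates and adaptors of SRC kinases, 1 was higher and 2 were lower, with a median of 0.03. NEDD9, a scaffold of the p130Cas family at focal adhesions, read 2091 in the HCC4006ER pool and 967 in the HCC4006 pool, 2.16-fold higher, and its 3 probe sets above background had log2 differences of 0.67 to 1.27. BCAR1, which encodes p130Cas, read 709 in the HCC4006ER pool and 714 in the HCC4006 pool. The adaptor SHC1 was 1.55-fold lower, at 3354 in the HCC4006ER pool and 5195 in the HCC4006 pool. CDCP1, a membrane protein that SRC kinases phosphorylate, was 1.53-fold lower, at 1589 in the HCC4006ER pool and 2429 in the HCC4006 pool. For SHC1 and CDCP1 each of the 2 probe sets above background passed the threshold, but with an equal array median both genes lay within it, at log2 differences of -0.49 and -0.48. Averaged over all probe sets NEDD9 (0.17) and CDCP1 (-0.42) lay within it as well.

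Of 10 partners of SYK with a fold, none was higher and 1 was lower past 1.5-fold, with a median log2 difference of -0.24 against -0.04 over all genes. PLCG2, a phospholipase that SYK activates in B cells, read 55.9 in the HCC4006ER pool and 179 in the HCC4006 pool, at least 1.95-fold lower, with its 3 other probe sets under background. With a background at the 99th percentile the lower bound of PLCG2 did not reach 1.5-fold (log2 -0.13). VAV1, a guanine nucleotide exchange factor, read 321 in the HCC4006ER pool and 479.7 in the HCC4006 pool, 1.49-fold lower and just within the threshold. HCLS1, a cortactin relative phosphorylated by SYK and LYN, read 5702 in the HCC4006ER pool and 4208 in the HCC4006 pool (log2 0.44). The adaptors through which SYK is recruited in blood cells, FCER1G and TYROBP, were under background on both arrays.

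Of 6 PTK6 substrates, KHDRBS3 was at least 1.63-fold lower, at 64.7 in the HCC4006ER pool and 149 in the HCC4006 pool, and 5 lay within 1.5-fold, among them KHDRBS1 (SAM68) with a log2 difference of 0.26. The second KHDRBS3 probe set was under background. With an equal array median the lower bound of KHDRBS3 did not reach 1.5-fold (-0.56). The gene had no fold with a background at the 99th percentile or where its other probe set was used or averaged in. Of 10 partners of PTK2B, GIT1, a scaffold of focal adhesions, was 2.26-fold higher in its 1 probe set, at 333 in the HCC4006ER pool and 147 in the HCC4006 pool, and 9 lay within 1.5-fold. The medians were -0.11 for the PTK6 substrates and 0.19 for the PTK2B partners.

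**Figure D4:**
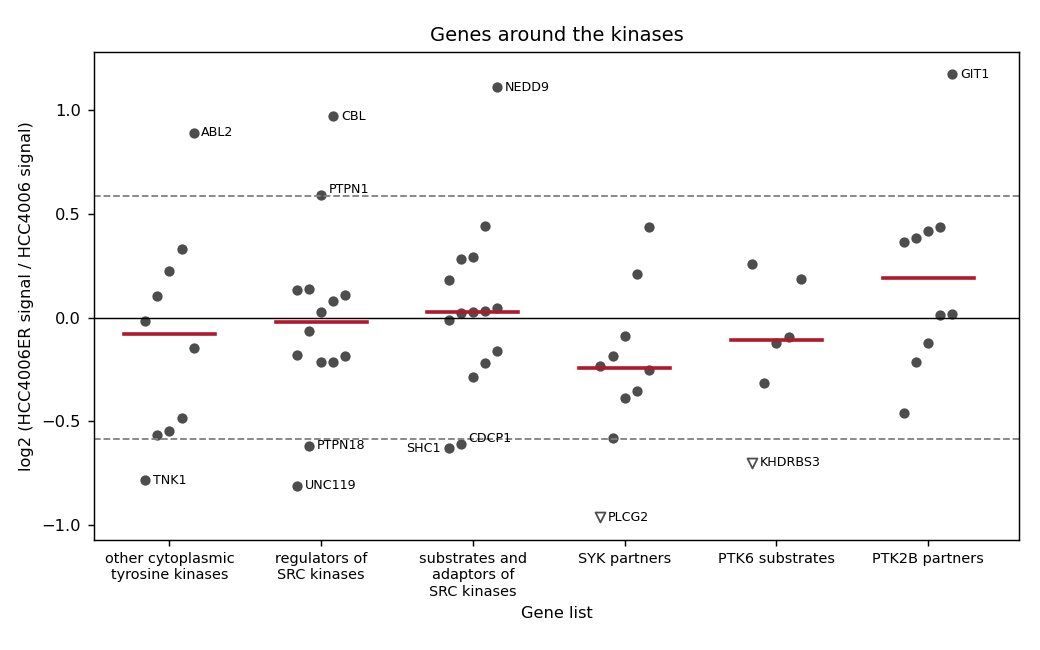
Log2 difference (HCC4006ER over HCC4006) of genes around the kinases, by list, for genes above background. Each point is 1 gene, open triangles mark a lower bound on the size, red bars are list medians and dashed lines mark 1.5-fold, past which genes are named. List medians run from -0.24 for the SYK partners to 0.19 for the PTK2B partners.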

How the data were processed

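The authors prepared total RNA in triplicate per cell line, mixed it and hybridized it to 1 Affymetrix HG-U133 array per line. They deposited 1 MAS5 signal intensity per probe set on a linear scale, and the submitters' processing notes also name GCOS 1.4. The series text gives 10 μg of RNA per line and the labels give 100 ng. Each array had been scaled to a common trimmed mean, which was 500.1 on both arrays without the extreme 2% at each end. The array medians were 57.7 for HCC4006ER and 63.4 for HCC4006. The table has no detection calls and no genome build.

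Gene names came from the platform annotation (41097 of 54675 probe sets with 1 symbol, 1801 with several, 11777 not listed), and 41043 of the 41097 had a gene identifier in a RefSeq table of GRCh38.p14. For each gene the probe set highest in mean log2 signal over both arrays was used, with a dim side raised to the background level and no fold where that turned the ratio round. The threshold is that of the study's methods. Precision is limited by having 1 array per line, and no p-value was computed. The share of all genes past 1.5-fold is given for comparison only, since it yields no error rate and does not replace a test.

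All kinases were named with every probe set. Of each list, the genes past 1.5-fold were named, and PTK2, CSK, BCAR1, VAV1, HCLS1, FCER1G, TYROBP and KHDRBS1 were named for their roles after their values were seen. The kinases, lists and background rule were chosen with earlier results of these data known. Genes with no probe set of 1 symbol were not analysed here. The gene step was tested on simulated data. Python 3.11.15, numpy 2.4.6, pandas 2.3.3 and matplotlib 3.10.9 were used.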

Additional observations from a re-analysis of the deposited data

How the results depend on the processing

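Counts were recomputed under 11 alternatives and log2 differences of single kinases under the 10 that can change them, where a fold could be had. Of 70 such differences 59 moved by less than 0.27, the SD among probe sets sharing a gene. Many of them could hardly move, since settings on background and dim signals leave a kinase bright on both arrays unchanged. Each median scaling adds the same shift of less than 0.27 to every kinase. The count therefore says little about robustness. Of the 3 kinases past 1.5-fold, none changed sign, while FRK did with the mean of its probe sets (-0.11) and its most different one (-0.32). With the mean over all probe sets of a gene, 0 kinases passed (0 higher and 0 lower), with SYK known by a lower bound only. With probe sets without a suffix letter 1 passed (SYK, lower, and 0 higher). Read from the most different probe set of each gene, 2 were higher and 1 was lower, FYN, LYN and PTK6, since SYK was then read from a dim probe set. Over all genes, 821 of 10170 were higher and 1080 lower with the mean over probe sets. Without a suffix letter 775 of 8831 were higher and 991 lower, and with the most different probe set 1142 of 8879 and 1386. With no filter on low signals, 5 of 9 kinases passed, 4 of them lower. Of all 19775 genes, 2574 were then higher and 4550 lower. At 2-fold 1 kinase passed (SYK, lower; 0 higher), while 283 of 11848 genes were higher and 424 lower. After scaling to an equal array median 1 kinase, SYK, was lower. Of all genes past 1.5-fold 58.3% were lower as deposited and 37.4% were lower with that scaling, which moved the median log2 difference to 0.10.

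Of the related genes, 12 of 65 passed as reported, 23 of 87 passed with no filter (8 higher, 15 lower) and 2 of 65 passed at 2-fold (2 higher, 0 lower). The counts of all genes with no filter and at 2-fold are those given above. With the mean over probe sets 3 of 49 were higher, beside 821 of all 10170 genes. With the median scaling 3 of 66 were lower, beside 880 of 11823. With a background at the 99th percentile 4 of 59 were lower, beside 1023 of 10496. No paired analysis was possible because each cell line has 1 array, and for the same reason no array could be left out.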
